A study of Mus musculus with 4 samples.

Results

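Genes of the major histocompatibility complex (MHC) and of antigen processing were measured in GR-depleted and control mouse mammary epithelial cells. They were taken as all probes that are not controls and whose gene name on the array begins with H2-, the mouse MHC, or is B2m, Tap1, Tap2, Tapbp, Psmb8, Psmb9, Psmb10, Psme1, Psme2, Erap1, Cd74 or Ciita. These were 76 probes for 49 gene names, out of 41174 such probes on the array. In the deposited table of log2 values, 41 of the 47 member probes that were bright enough to compare were lower in the GR-depleted line, with a median difference of -0.62. Of all 24436 probes compared, 11973 were lower. The immunoproteasome subunits Psmb8 and Psmb9 and the invariant chain Cd74 fell by more than 3-fold, and most class I heavy chain probes were lower by less than 2-fold. H2-DMa, 1 chain of a class II peptide editor, rose. The scanner files of the same samples gave no called member, and in them the fall was present between 1 pair of arrays and nearly absent between the other.

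MHC class I molecules present peptides made inside a cell to CD8 T cells, and are built from a heavy chain (H2-K1, H2-D1 and their relatives in the mouse) and the light chain beta-2 microglobulin. The peptides are cut by the proteasome, in which the interferon-inducible subunits Psmb8, Psmb9 and Psmb10 can replace the standard catalytic subunits, are carried into the endoplasmic reticulum by the transporter Tap1-Tap2, trimmed by Erap1 and loaded with the help of Tapbp. MHC class II molecules present peptides from endosomes to CD4 T cells. Class I is made by nearly all cells, whereas class II is made mainly by professional antigen-presenting cells and, in epithelium, after induction by interferon-gamma through the transactivator Ciita.

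The cells were EPH-4, a non-malignant mouse mammary epithelial line that became immortal without an introduced oncogene. EV-50 is an EPH-4 clone with the empty H1-2 vector, and shGR-19 is a clone that expresses an shRNA directed at the glucocorticoid receptor (GR, gene Nr3c1). Both carried the pBABE-puro marker and were kept in serum-free DMEM/F-12 medium with 2 µg/ml puromycin and without glucocorticoid, so that the comparison asks what GR does in the absence of its hormone. Each line is 1 clone, so that differences between clones cannot be told apart from effects of the shRNA. There were 2 arrays per line, and nothing in the sources used here says that the duplicates came from separate cultures or RNA preparations. The p-values therefore measure only the spread between duplicates in the source that was fitted, which may be technical. In the deposited table of log2 values this is the spread left after processing, not that between the scanner files. Of each sample 300 ng RNA was labelled with Cy3 and hybridized to an Agilent Whole Mouse Genome array, where a brighter probe means more of its RNA.

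Of the 41174 probes, from 21955 to 25772 were well above background on the single arrays. Kept for comparison with limma were the 24436 probes that passed this on both arrays of either line. A probe was called where the lines differed by more than 2-fold with an adjusted p (Benjamini-Hochberg) below 0.01, and a gene is said to rise or fall where its adjusted p was below 0.01 at any fold. Of the 76 member probes 47 were kept, for 31 genes, 23 were well above background on no array, and 6 were so on some arrays without passing the filter. Of 14 mammary epithelial marker genes on the array 13 were kept, among them Krt8, Krt18, Cdh1 and Epcam. Of 14 leukocyte and antigen-presenting cell markers, Ptprc, Itgam, Emr1 and Ms4a1 were well above background on no array, and 10 were kept.

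The scanner files and the table of log2 values, called the value table below, differ in what separates the lines. Both are given for the members as a set and for many single genes. Where no scanner value is printed, a difference is that of the value table. Nr3c1, the targeted gene, was first examined as a check of the labels. Its brightest probe had scanner values, as log2 intensity minus that of the 75th percentile on the same array, of 1.81 and 1.92 in EV-50 and of 1.46 and -0.034 in shGR-19. Here and below, a pair of scanner values stands in the order replicate 1 and replicate 2, and the line is that of the label. The array labelled shGR-19 replicate 1 thus differed from its EV-50 counterpart by -0.35, and that labelled replicate 2 by -1.95. The other 3 kept probes of Nr3c1 showed the same pattern, with differences from -0.24 to -0.20 between the arrays labelled replicate 1 and from -1.82 to -1.47 between those labelled replicate 2. In the value table, where each probe is centred on its median over the arrays, Nr3c1 fell by 1.94 (limma adjusted p = 0.00215). The direction of a difference below is therefore that of the value table unless scanner arrays are named. The scanner arrays labelled replicate 2 had the opposite sign for some genes. Examples are H2-Eb1, at -0.20 in the value table and 0.32 between those arrays, and Lyz2, at 0.76 and -0.30. The targeted gene does not bear out the label of the scanner array labelled shGR-19 replicate 1.

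Between the scanner arrays labelled replicate 1 the 47 kept member probes differed by a median of -0.034, and 30 of them were lower in shGR-19, against 40.4% of all kept probes. Between the arrays labelled replicate 2 the median was -0.60, and 40 were lower, against 48.2% of all kept probes. Across the 47 probes, the value-table difference correlated with the replicate 2 difference with r = 0.94 and with the replicate 1 difference with r = 0.20 (a description across probes, which share arrays and are not independent). Over all 24436 kept probes these values were 0.84 and 0.043. In the plot of the differences in both sources, the members follow the diagonal between the arrays labelled replicate 2 only.

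**Figure D1:**
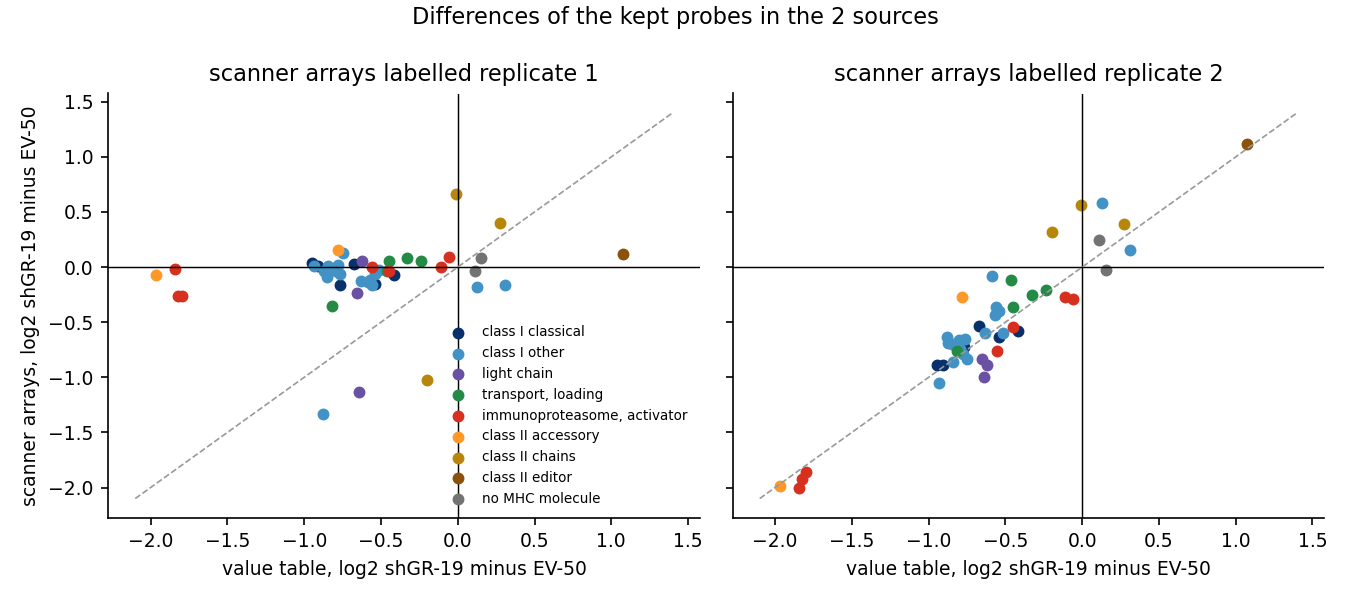
Log2 difference shGR-19 minus EV-50 of each of the 47 kept member probes in the value table (horizontal axis) and between the scanner arrays labelled replicate 1 (left) or replicate 2 (right, vertical axis). Points are probes coloured by role, and the dashed line marks equal differences. Most replicate 1 differences lie around 0, with a median of -0.034, a range from -1.33 to 0.66 and 3 probes past 2-fold. The replicate 2 differences lie near the dashed line, with a median of -0.60.

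The scanner arrays also differed within each line. The array labelled EV-50 replicate 2 lay above that labelled EV-50 replicate 1 by a median of 1.03 over the kept member probes, and was the highest of the 4 arrays for 37 of the 47, against 21.8% of all kept probes. The array labelled shGR-19 replicate 2 lay above its own replicate 1 by a median of 0.44, and for 34 of the 47 probes fell between EV-50 replicate 2 and the arrays labelled replicate 1. In the value table the median difference between duplicates was 0.0014 for EV-50 and 0.032 for shGR-19. Standard errors and p-values of the value table thus describe its processed values and not the spread between the scanner arrays. The fit on the scanner arrays called 0 member probes lower and 0 higher (0% of all kept probes in either direction), with every limma adjusted p at 1.00. Both shGR-19 values lay below both EV-50 values for 3 member probes, against 6.14% of all kept probes, and above them for 2, against 11.7%. At an unadjusted p below 0.05 there were 2 of 47 member probes, and 209 of all 24436 kept probes. Without the array labelled EV-50 replicate 2 the median scanner difference between the lines turned from -0.35 to 0.17, with 37 of 47 probes higher in shGR-19.

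The value table gave a different picture, in which 4 member probes were called lower, for Psmb8 (2 probes), Psmb9 and Cd74, against 2.39% of all kept probes, and 1 was called higher, for H2-DMa, against 1.87%. Without the limit on the fold 21 of the 47 fell, against 6.04% of all kept probes, and 1 rose, against 5.53%. By gene, with the brightest kept probe of each, 14 of 31 genes fell, 1 rose and 16 did not pass the test. The values of shGR-19 and EV-50 did not overlap for 38 probes lower and 6 probes higher in shGR-19, against 35.3% and 36.6% of all kept probes. Whether fewer cells expressed a gene or each cell held less of its RNA cannot be told apart in bulk RNA. With any 1 of the 4 columns of the value table left out, no member passed, and the smallest limma adjusted p of the members was 0.029.

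**Figure D2:**
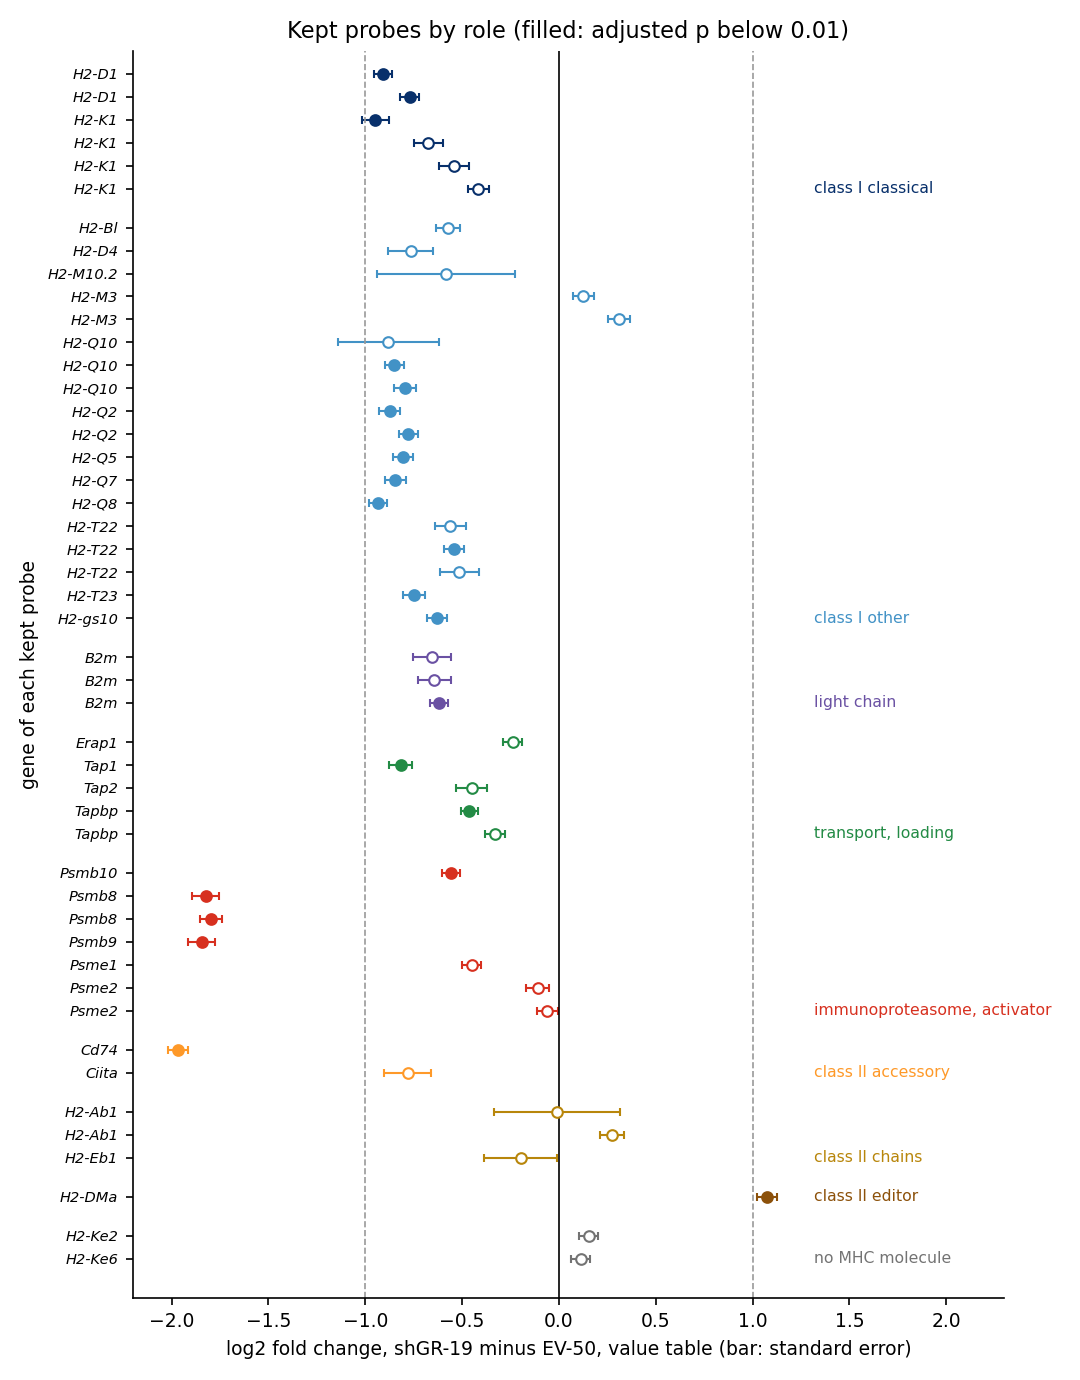
Log2 fold change in the value table, shGR-19 minus EV-50, of each of the 47 kept member probes, grouped by role. Bars are standard errors from limma, filled points had an adjusted p below 0.01, and dashed lines mark a 2-fold difference. Psmb8, Psmb9 and Cd74 lie beyond the left dashed line and H2-DMa beyond the right, while the class I probes lie between 0 and the left line except for those of H2-M3.

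The immunoproteasome showed the largest falls among the class I pathway genes. Psmb8, a catalytic subunit encoded within the MHC (mm9 chromosome 17, 34337771 to 34337830 for its brightest probe), had scanner values of 1.47 and 3.93 in EV-50 against 1.21 and 2.07 in shGR-19. The array labelled EV-50 replicate 2 was the highest, and the groups overlapped because shGR-19 replicate 2 lay above EV-50 replicate 1. Psmb8 stood in the value table at 0.88 and 0.88 in EV-50 and at -0.97 and -0.88 in shGR-19, a fall by 1.80 ± 0.057 (SE, n = 2 arrays per line; limma adjusted p = 0.00252), which is 3.47-fold. Its other probe fell by 1.82 ± 0.071 (limma adjusted p = 0.00304).

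Psmb9, the neighbouring catalytic subunit (34319174 to 34319233), had scanner values of -0.68 and 2.13 in EV-50 against -0.70 and 0.13 in shGR-19. The arrays labelled replicate 1 differed by -0.018, and those labelled replicate 2 by -2.00. It stood in the value table at 1.01 and 0.88 in EV-50 and at -0.88 and -0.93 in shGR-19, a fall by 1.84 ± 0.070, or 3.59-fold (limma adjusted p = 0.00291).

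Psmb10, the immunoproteasome subunit encoded outside the MHC (chromosome 8, 108459677 to 108459736), changed less. Its scanner values were 4.27 and 5.49 in EV-50, and 4.27 and 4.73 in shGR-19. It fell by 0.56 ± 0.046 in the value table, or 1.47-fold (limma adjusted p = 0.00706). Psme1 and Psme2 encode the interferon-inducible proteasome activator. Psme1 had scanner values of 4.89 and 5.72 in EV-50 against 4.85 and 5.18 in shGR-19, and differed in the value table by -0.45 ± 0.051 without passing the test (limma adjusted p = 0.0115). Psme2 had scanner values of 5.74 and 6.60 in EV-50 against 5.74 and 6.32 in shGR-19, and differed by -0.11 ± 0.059 (limma adjusted p = 0.235).

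The standard catalytic subunits that the immunoproteasome subunits replace, Psmb5, Psmb6 and Psmb7, did not pass the test, and their value-table differences were above 0, at 0.34, 0.44 and 0.30 (limma adjusted p = 0.0169, 0.0103 and 0.0316). The 11 other core subunits had a median difference of 0.17, and none passed. All 24436 kept probes had a median of 0.0087.

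**Figure D3:**
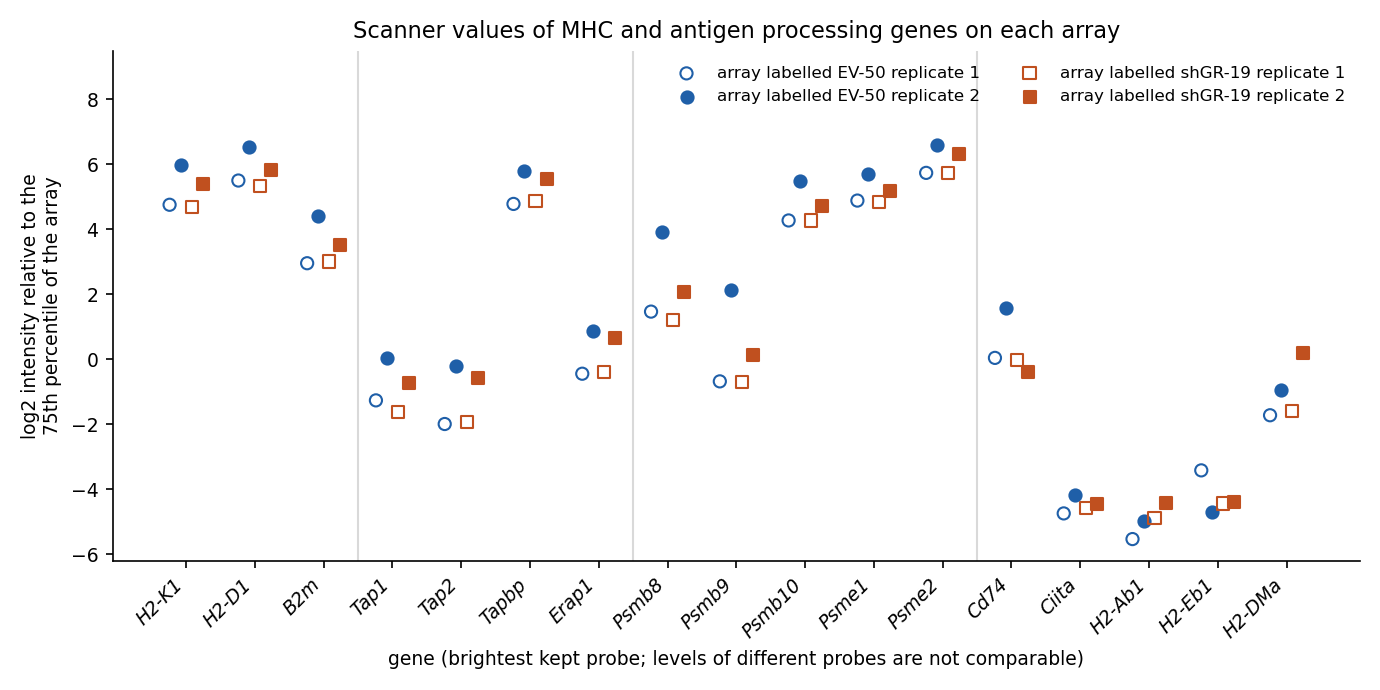
Log2 intensity minus the 75th percentile on each array (vertical axis) of the brightest kept probe of 17 genes on each of the 4 scanner arrays. Circles are arrays labelled EV-50 and squares arrays labelled shGR-19, open for replicate 1 and filled for replicate 2. For Psmb8, Psmb9 and B2m the open symbols lie close together and the filled circle lies above the filled square, while for H2-DMa the filled square is the highest.

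Among the genes of peptide transport and loading, Tap1 fell. Tap1, an ATP-binding half-transporter (34330854 to 34330913), had scanner values of -1.27 and 0.023 in EV-50 against -1.62 and -0.74 in shGR-19, and was lower in shGR-19 in each pair. Its fall in the value table was 0.82 ± 0.059, or 1.76-fold (limma adjusted p = 0.00585). Tap2, its partner, had scanner values of -2.00 and -0.22 in EV-50 against -1.94 and -0.58 in shGR-19, and a value-table difference of -0.45 ± 0.082 that did not pass (limma adjusted p = 0.0282).

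Tapbp, tapasin, which bridges the transporter and class I, had scanner values of 4.78 and 5.80 in EV-50 against 4.86 and 5.55 in shGR-19. Its probes disagreed on the call: the brightest differed by -0.33 ± 0.052 without passing (limma adjusted p = 0.0216), and the other fell by 0.46 ± 0.045 (limma adjusted p = 0.00899). Erap1, which trims peptides in the endoplasmic reticulum, had scanner values of -0.45 and 0.86 in EV-50 against -0.40 and 0.66 in shGR-19, with a value-table difference of -0.24 ± 0.049 (limma adjusted p = 0.0369). Of 6 other assembly genes, the chaperones Calr, Canx and Pdia3 and the proteasome regulators Psme3 and Psmf1 did not pass, and the tapasin relative Tapbpl fell by 0.61 (limma adjusted p = 0.00744).

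The class I light chain B2m (chromosome 2, 121978401 to 121978460) had scanner values of 2.96 and 4.40 in EV-50 against 3.01 and 3.51 in shGR-19. The arrays labelled replicate 1 differed by 0.053, and those labelled replicate 2 by -0.88. B2m fell in the value table by 0.62 ± 0.046, or 1.54-fold (limma adjusted p = 0.00603). Its dimmer probes were lower by 0.64 and 0.65 and did not pass (limma adjusted p = 0.0158 and 0.0192). Unlike the brightest probe, both were lower in each scanner pair. The former differed by -1.14 between the arrays labelled replicate 1 and by -0.996 between those labelled replicate 2, and the latter by -0.24 and -0.83.

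Of the 24 kept probes of class I heavy chains, 22 were lower in the value table, against 11973 of all 24436 kept probes. The median over the 24 was -0.76. Past the test were 13, all lower and none by more than 2-fold, against 6.04% of all kept probes. H2-D1, a classical heavy chain (35403437 to 35403669), had scanner values of 5.50 and 6.54 in EV-50 against 5.34 and 5.82 in shGR-19, and fell by 0.77 ± 0.048 (limma adjusted p = 0.00486). H2-K1, the other classical heavy chain on the array (34133055 to 34133114), had scanner values of 4.76 and 5.98 in EV-50 against 4.68 and 5.40 in shGR-19. Its brightest probe differed by -0.42 ± 0.055 and did not pass (limma adjusted p = 0.0153), whereas 1 of its other 3 probes fell by 0.95 ± 0.071 (limma adjusted p = 0.00614), and the remaining differences were -0.54 and -0.67. The 4 probes of H2-K1 thus agreed in direction and not in size.

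The other class I genes are those of the Q, T and M clusters, many of which encode non-classical molecules. H2-Q2, H2-Q5, H2-Q7, H2-Q8, H2-Q10, H2-T23 and H2-gs10 fell, with value-table differences from -0.93 for H2-Q8 to -0.63 for H2-gs10. H2-Bl, H2-D4, H2-M10.2 and H2-T22 were lower by 0.51 to 0.76 and did not pass with their brightest probes, while 1 of 3 probes of H2-T22 fell by 0.54 (limma adjusted p = 0.00877). H2-M3, which presents formylated peptides, was the class I gene with values above 0, at 0.31 ± 0.056 and 0.13 ± 0.054 for its probes, and did not pass (limma adjusted p = 0.0280 and 0.156). The remaining 11 class I gene names, H2-M1, H2-M9, H2-M10.1, H2-M10.3, H2-M10.4, H2-M10.5, H2-M10.6, H2-M11, H2-Q1, H2-T3 and H2-T24, were well above background on no array.

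Some class I values are not independent measurements of separate genes, because some probes of related heavy chains resemble each other. Joined by shared runs of at least 20 bases, the 24 kept class I probes formed 19 groups, of which 14 held a single probe and 4 held probes of different genes. The pairs of these 4 groups are shown, since a transcript of one gene may bind the probe of the other. The longest shared run of each pair is in capitals.
H2-Q7 probe, chr17:35579687-35579918: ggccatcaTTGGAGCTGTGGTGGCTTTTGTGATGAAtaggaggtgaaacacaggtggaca
H2-T23 probe, chr17:36167338-36167574: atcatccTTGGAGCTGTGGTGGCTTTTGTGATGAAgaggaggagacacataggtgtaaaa
H2-D1 probe, chr17:35403132-35403191: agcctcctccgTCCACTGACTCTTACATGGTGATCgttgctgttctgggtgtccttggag
H2-Q2 probe, chr17:35482113-35482172: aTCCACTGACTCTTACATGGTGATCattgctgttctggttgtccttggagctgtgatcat
H2-K1 probe, chr17:34136288-34136347: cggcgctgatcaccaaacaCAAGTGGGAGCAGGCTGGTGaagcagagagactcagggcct
H2-Q10 probe, chr17:35607907-35607966: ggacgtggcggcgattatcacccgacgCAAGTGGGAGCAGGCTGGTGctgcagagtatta
H2-Q10 probe, chr17:35610210-35610269: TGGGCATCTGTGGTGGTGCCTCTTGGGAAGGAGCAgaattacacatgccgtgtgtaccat
H2-Q5 probe, no position in the annotation of the array: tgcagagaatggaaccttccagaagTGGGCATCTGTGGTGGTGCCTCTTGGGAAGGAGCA

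When the 60-base probes were laid side by side without gaps, those of H2-Q7 and H2-T23 matched at 50 bases with a shared run of 28, those of H2-D1 and H2-Q2 at 47 with a run of 24, and those of H2-K1 and H2-Q10 at 40 with a run of 20. The H2-Q10 and H2-Q5 probes overlapped by a run of 35 identical bases. The value-table differences were -0.84 and -0.75 for H2-Q7 and H2-T23, -0.91 and -0.78 for H2-D1 and H2-Q2, -0.67 and -0.85 for H2-K1 and H2-Q10, and -0.80 and -0.80 for H2-Q10 and H2-Q5. Another H2-K1 probe matched that of H2-Bl at 46 bases with a run of 16, and these differed by -0.95 and -0.57. The class I probes as a whole lay from -0.95 to 0.31. How much of each signal came from the named gene was not tested.

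The class II genes split. Cd74, the invariant chain that guides class II molecules to endosomes (chromosome 18), had the largest fall of the members, at 1.97 ± 0.050 in the value table, or 3.91-fold (limma adjusted p = 0.00219). Its scanner values were 0.041 and 1.59 in EV-50, and -0.032 and -0.40 in shGR-19, so that both shGR-19 values lay below both EV-50 values, with a difference of -0.072 between the arrays labelled replicate 1. It stood in the value table at 1.00 and 0.96 in EV-50 and at -0.96 and -1.01 in shGR-19. Ciita, the class II transactivator (chromosome 16, 10526303 to 10526362), was dim, with scanner values of -4.75 and -4.18 in EV-50 against -4.60 and -4.45 in shGR-19. It passed background on 3 of the 4 arrays, and its value-table difference of -0.78 ± 0.119 did not pass (limma adjusted p = 0.0201).

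H2-DMa, a chain of the peptide editor H2-DM (34274300 to 34274863), was the only member called higher. Its scanner values were -1.73 and -0.94 in EV-50, and -1.60 and 0.18 in shGR-19, with the array labelled shGR-19 replicate 2 the highest. It rose by 1.07 ± 0.051 in the value table, or 2.10-fold (limma adjusted p = 0.00361). H2-DMb1, which encodes the partner chain of H2-DMa, was well above background on only 1 array, labelled EV-50 replicate 2, and was not kept. That probe had scanner values of -4.85 and -5.02 in EV-50 against -7.61 and -7.01 in shGR-19, lower in shGR-19 in each pair, unlike H2-DMa. H2-DMb2, H2-Oa and H2-Ob, further editor chains, were not kept either.

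The class II alpha and beta chains themselves were near or below background. H2-Aa, H2-Ea-ps and H2-Eb2 were well above background on no array, and the array had no other H2-Ea probe. H2-Ab1 had scanner values of -5.54 and -4.98 in EV-50 against -4.88 and -4.43 in shGR-19, was above background on 3 arrays, and differed by -0.0099 ± 0.327 in the value table (limma adjusted p = 0.983). Another H2-Ab1 probe differed in the opposite direction, by 0.27 ± 0.063 (limma adjusted p = 0.0456). H2-Eb1 had scanner values of -3.42 and -4.71 in EV-50 against -4.45 and -4.40 in shGR-19, with a value-table difference of -0.20 ± 0.189 (limma adjusted p = 0.472). No value-table difference in these chains passed the test. On the scanner arrays both kept H2-Ab1 probes were higher in shGR-19 in each pair. The differences were 0.66 and 0.56 for the brightest and 0.40 and 0.39 for the other. These were the 2 member probes whose shGR-19 values both lay above both EV-50 values, against 11.7% of all kept probes. They were near background and did not pass the scanner fit.

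Genes around class II were mixed. The class II promoter factors Rfx5, Rfxap and Rfxank did not pass, with value-table differences of -0.47, 0.053 and 0.068. Of the endosomal enzymes Ctsb, Ctsd, Ctsl, Lgmn and Ifi30 none passed, at differences from -0.38 for Ctsl to 0.49 for Ifi30, and Ctss was well above background on no array. Of the 10 kept leukocyte markers Cd14 fell by 0.81 in the value table (limma adjusted p = 0.00447), and Lyz2 and Aif1 rose by 0.76 and 0.71 (limma adjusted p = 0.00676 and 0.00706). Lyz2 was dim, with scanner values of -3.47 and -5.25 in EV-50 against -3.23 and -5.55 in shGR-19. Between the arrays labelled replicate 2 it was thus lower in shGR-19, by 0.30. Aif1 had scanner values of -3.76 and -4.28 in EV-50 against -3.75 and -3.88 in shGR-19. Intensities relative to the 75th percentile were summed over all probes of the 14 markers on the array, kept or not. The sums were 3.95 and 3.94 in EV-50, and 3.51 and 3.09 in shGR-19. Cd14, the brightest kept marker, had scanner values of 1.34 and 1.45 in EV-50 against 1.19 and 0.78 in shGR-19. Ptprc, which marks all leukocytes, was not above background. The epithelial list, in which Krt14 was called lower at -1.13 (limma adjusted p = 0.00332), summed in the same way to 1388 and 1298 against 1440 and 1135. The part of these shifts in the values of the MHC genes was not tested.

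Among regulators of class I, Nlrc5, Irf1 and Irf2 did not pass, at -0.063, -0.026 and 0.077. Of 5 class I-like molecules outside the H2 names, Fcgrt, the neonatal Fc receptor, was called lower at -1.99 in the value table (limma adjusted p = 0.00863). Its scanner values were -3.02 and -2.63 in EV-50 against -2.86 and -4.48 in shGR-19. Cd1d1, Mr1, Hfe and Azgp1 did not pass. Of 3 kept ligands of the NK cell receptor NKG2D, H60a was called lower at -1.69 in the value table (limma adjusted p = 0.00301), and Raet1a and Ulbp1 did not pass. The scanner values of H60a were -0.079 and -1.55 in EV-50 against -0.12 and -3.30 in shGR-19, so that shGR-19 replicate 1 lay above EV-50 replicate 2. Fcgrt and H60a were therefore the called genes outside the MHC names in these lists.

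Of the 76 member probes 61 lie on chromosome 17, and the 34 kept ones with a position there span 34063096 to 37411409 in mm9. The 34 had a median value-table difference of -0.61, with 17 lower and 1 higher past the test. Of all kept probes 6.04% were lower and 5.53% higher past the test. The 153 other kept probes in the span, of 110 genes, had a median of 0.051, with 9 lower and 7 higher past the test. They were set apart by gene name alone. Among the 9 are probes of Gm7035, next to H2-K1, at -0.67 and -0.73. Also among them is EG547347, between H2-T22 and H2-Bl, at -0.93. Whether these encode class I molecules was not examined. The members are interspersed with the other probes. Along the chromosome, counted from the Psmb9 probe, the probe of H2-DMa lies at -44.9 kb and those of Tap1, Psmb8 and Tap2 at 11.7, 18.6 and 32.5 kb. Neighbouring genes thus differed by 1.07 in H2-DMa, -1.84 in Psmb9, -0.82 in Tap1, -1.80 in Psmb8 and -0.45 in Tap2. Brd2, a bromodomain gene not known for antigen presentation, lies at -70.2 kb and differed by 0.059 (limma adjusted p = 0.425). The probes of Col11a2, at -129.9 and -116.2 kb, differed by -0.79 and 0.28 (limma adjusted p = 0.00674 and 0.0454). Of the other kept probes in the span 1 was called lower, for Tnf at -1.01 (limma adjusted p = 0.00634). Another 1 was called higher, for Hspa1a at 1.93 (limma adjusted p = 0.00535). Of all kept probes 2.39% were called lower and 1.87% higher.

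**Figure D4:**
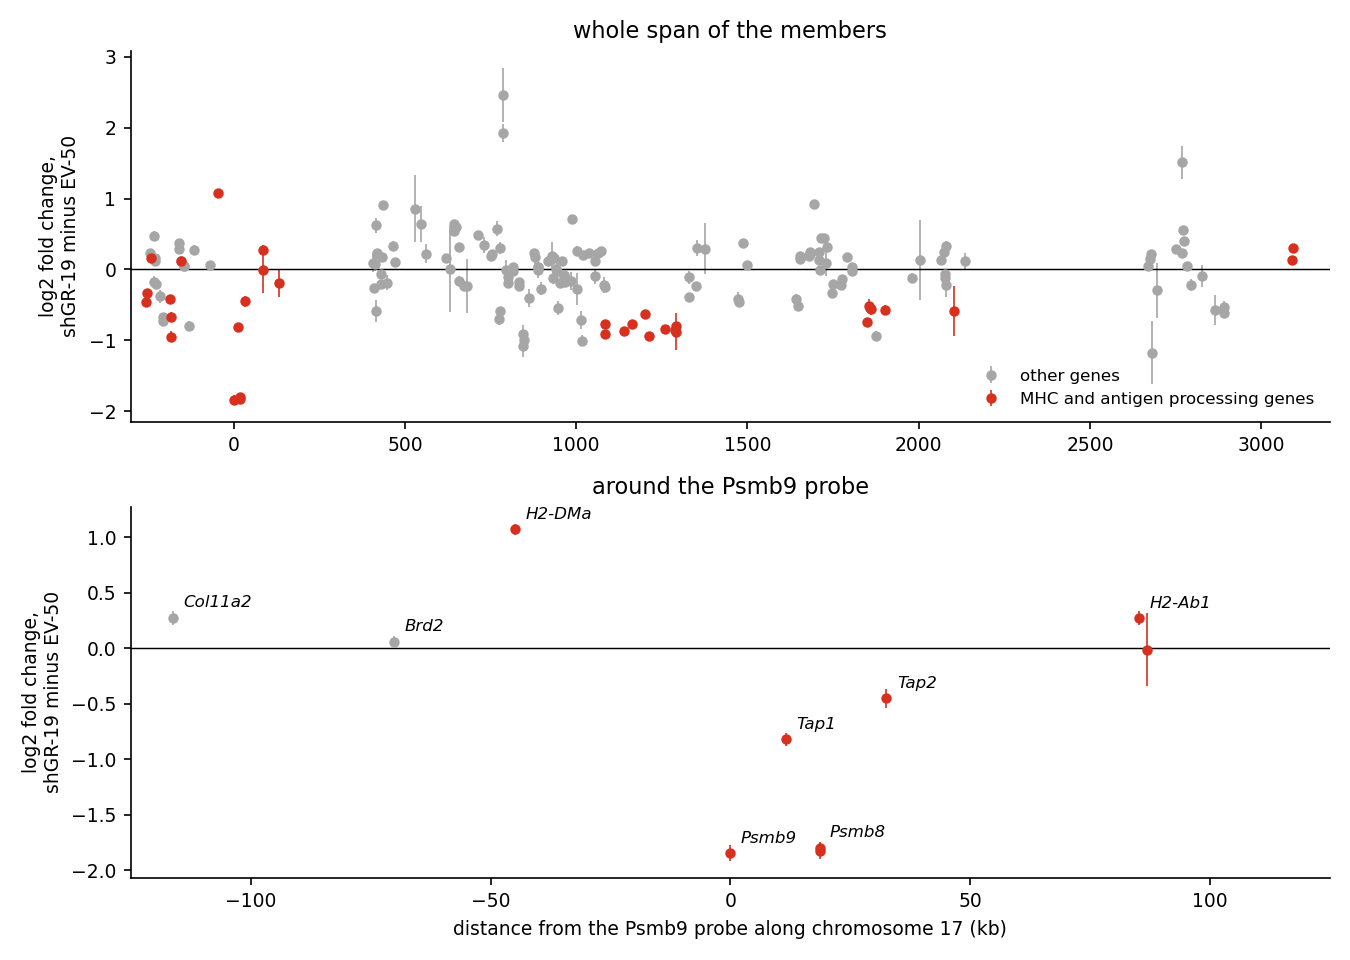
Value-table log2 fold change, shGR-19 minus EV-50, of kept probes by their distance from the Psmb9 probe along chromosome 17, over the whole span (top) and close to Psmb9 (bottom). Red points are MHC and antigen processing genes, grey points genes with other names, and bars standard errors from limma. Psmb9 and Psmb8 are the lowest points of the lower panel and H2-DMa the highest.

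Promoter windows of 250 bases before to 50 bases after the start, from RefSeq on GRCm38.p6, were searched for 21 of the 31 kept genes. Those of the classical heavy chains, of the light chain and of the most strongly lowered proteasome subunits are shown, with matches to motifs in capitals. The motifs searched on both strands were the interferon response element GAAANNGAA, its form with a shorter spacing GAANNGAAA, the gamma-activated site TTCNNNGAA, the kappaB core GGGATTCCC and the core ACANNNTGT of the palindrome that GR binds, and matches of different motifs may overlap.
H2-K1, chr17:34000298-34000597, minus strand: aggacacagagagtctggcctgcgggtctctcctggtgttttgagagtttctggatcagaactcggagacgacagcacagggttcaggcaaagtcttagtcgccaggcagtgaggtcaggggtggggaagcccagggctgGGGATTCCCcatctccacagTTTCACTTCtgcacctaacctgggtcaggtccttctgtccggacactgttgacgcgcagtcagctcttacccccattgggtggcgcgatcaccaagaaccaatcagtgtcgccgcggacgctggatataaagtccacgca
H2-D1, chr17:35262844-35263143, plus strand: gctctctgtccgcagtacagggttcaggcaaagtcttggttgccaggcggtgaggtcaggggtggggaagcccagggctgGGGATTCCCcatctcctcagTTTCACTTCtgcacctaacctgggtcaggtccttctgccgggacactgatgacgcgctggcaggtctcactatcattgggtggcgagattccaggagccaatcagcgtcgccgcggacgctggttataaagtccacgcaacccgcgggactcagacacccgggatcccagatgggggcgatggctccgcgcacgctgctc
B2m, chr2:122147437-122147736, plus strand: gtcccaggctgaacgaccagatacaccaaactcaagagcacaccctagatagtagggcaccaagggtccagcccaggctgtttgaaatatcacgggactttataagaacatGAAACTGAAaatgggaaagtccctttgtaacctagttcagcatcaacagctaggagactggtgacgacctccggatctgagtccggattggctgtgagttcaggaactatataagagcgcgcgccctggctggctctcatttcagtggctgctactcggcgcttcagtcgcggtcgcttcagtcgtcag
Psmb9, chr17:34187281-34187580, minus strand: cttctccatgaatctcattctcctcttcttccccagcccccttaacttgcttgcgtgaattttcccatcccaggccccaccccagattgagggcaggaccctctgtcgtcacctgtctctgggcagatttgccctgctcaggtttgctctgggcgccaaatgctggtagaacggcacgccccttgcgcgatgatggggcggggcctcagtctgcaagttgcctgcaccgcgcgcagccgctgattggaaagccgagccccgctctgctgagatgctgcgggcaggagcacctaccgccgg
Psmb8, chr17:34197945-34198244, plus strand: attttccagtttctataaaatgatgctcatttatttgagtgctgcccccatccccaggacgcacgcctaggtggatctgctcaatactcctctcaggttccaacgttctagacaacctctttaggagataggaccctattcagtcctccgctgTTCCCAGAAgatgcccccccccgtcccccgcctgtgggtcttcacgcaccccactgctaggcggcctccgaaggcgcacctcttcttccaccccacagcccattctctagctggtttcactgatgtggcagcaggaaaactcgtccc

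The windows of H2-K1 and H2-D1 shared a run of 47 bases and both held the kappaB core, which is found in 0.353% of 32851 windows, and the shorter interferon element, which is found in 7.52%. The window of B2m held the interferon element GAAANNGAA, present in 8.56% of windows, and that of Psmb8 the gamma-activated site, present in 8.3%. The Psmb9 window held none of the motifs, and 275 of its 300 bases are also in the window of Tap1, which is read from the opposite strand. The windows of Tap1, Psmb10 and H2-DMa held none of the motifs either. Of the 21 genes, 5 held the interferon element, 6 its shorter form, 2 the gamma-activated site and 3 the kappaB core. The GR core ACANNNTGT was in 0 of the 21 and in 6.85% of the 32851 windows searched. The other kept genes were left out of the search, so the counts do not describe their promoters. Among them is Cd74, the member with the largest fall, since no window of chromosome 18 was searched. These matches describe the letters of the windows and are not measured binding sites.

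H2-Ke2 and H2-Ke6 are named for the region and encode no MHC molecule, the former being a prefoldin subunit and the latter a steroid dehydrogenase. Their value-table differences were 0.15 and 0.11, and neither passed (limma adjusted p = 0.0863 and 0.153).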

How the data were processed

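The authors deposited, per the file headers and the study's methods, the intensity of each spot as background-subtracted by Agilent Feature Extraction 10.5.1.1 and not scaled between arrays, together with GeneSpring output as log2 values, whose exact scaling is not given in the sources used here. In all 41265 rows of that table the median over the arrays was 0, and its column medians were 0.076, 0.038, -0.056 and -0.063. The 4 arrays were on 1 slide and in 1 scan. From 74 to 139 spots per array were left out as outliers, and 0 were saturated.

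Spots of a probe were averaged as log2 intensity, from which the 75th percentile of the array was subtracted. A probe counted as well above background where a share of at least 0.5 of its spots were, and 24436 probes were kept. Both sources were fitted with limma 3.58.1 in R 4.3.3 (lmFit, eBayes) on these probes, with Benjamini-Hochberg adjustment over all of them. A gene is given by its brightest kept probe. Genes named are those of the selection rule, H2-K1, H2-D1, the class II chains, H2-DMa and other members called or past 2-fold, and listed pathway genes that were called. Coordinates are mm9, as in the array's annotation. Of the 76 accessions 64 matched RefSeq, where H2-Ke2 is Pfdn6 and H2-gs10 is H2-Q4. The members and lists were chosen with earlier results of these data known. Of the listed pathway genes, 1 is not reported here.

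Alternatives were other background corrections and scalings, filters, a trended prior (statmod 1.5.0), the replicate block, each array left out, a plain equal-variance test, and other thresholds. Data of 24436 probes were simulated with the spreads of the value table shuffled among probes. There, 35% of probes changed by 1.5 and 67% of those changed by 3 on the log2 scale were recovered, with 1 false call. With the spreads of the scanner arrays 0% were recovered. Because of the shuffling, these shares do not describe bright and dim probes separately. No exact permutation test was used, since 2 against 2 arrays cannot reach p below 0.05.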

Additional observations from a re-analysis of the deposited data

How the results depend on the processing

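Of the value table, the 4 member probes called lower and 1 called higher became 0 and 0 with all probes kept, with the replicate block, and with the adjusted plain test of equal variances, and with 1 column left out both counts ranged from 0 to 0. With no limit on the fold 21 were lower. Median centring, the stricter filter, an intensity trend with a robust prior, p below 0.01 without adjustment, adjusted p below 0.05 and the plain test without adjustment (chosen after seeing the data) left both counts as they were. On the scanner arrays both counts were 0 under every alternative on these arrays except p below 0.01 without adjustment, which gave 1 lower, and the value table itself gave 4 lower and 1 higher. Same-numbered arrays deviated together with a correlation of 0.57 on the scanner arrays and of 0.056 in the value table. The sources do not say that a number pairs samples. Of the 15 genes that fell or rose at any fold in the value table, none passed with the block, and none with all probes kept. The trend added 9 genes that passed at any fold, and the stricter filter 4. The direction turned for H2-M3 on the scanner arrays in the value table (0.31) and with the mean of its probes (0.097), for H2-Ab1 in the value table (-0.0099), for Ciita with quantile normalization (0.016), and for H2-Ab1 of the value table with the mean of its probes (0.13). Fits without 1 array take the spread of the remaining array from the other line. The scanner difference then ranged from -1.14 to 0.30 for B2m, -0.34 to 0.23 for Ciita, -0.73 to 0.58 for Erap1, -0.74 to 0.19 for H2-Bl, -0.96 to 0.078 for H2-D1, -0.87 to 0.17 for H2-D4, -0.27 to 1.51 for H2-DMa, -0.997 to 0.29 for H2-Eb1, -0.94 to 0.28 for H2-K1, -0.11 to 0.17 for H2-Ke2, -0.15 to 0.37 for H2-Ke6, -0.24 to 0.031 for H2-M10.2, -0.41 to 0.40 for H2-M3, -0.95 to 0.18 for H2-Q10, -0.96 to 0.20 for H2-Q2, -0.87 to 0.19 for H2-Q5, -1.02 to 0.16 for H2-Q7, -0.74 to 0.11 for H2-T22, -0.999 to 0.29 for H2-T23, -0.88 to 0.15 for H2-gs10, -0.99 to 0.23 for Psmb10, -2.29 to 0.17 for Psmb8, -2.42 to 0.40 for Psmb9, -0.71 to 0.13 for Psme1, -0.57 to 0.29 for Psme2, -1.20 to 0.089 for Tap1, -1.04 to 0.74 for Tap2 and -0.59 to 0.42 for Tapbp. In the value table it ranged from -0.44 to 0.42 for H2-Ab1, and no other gene turned. The cause of these changes was not tested. The number of arrays limits every value, and signals near background limit the class II chains and Ciita.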
